A study of Mus musculus with 6 samples.

Results

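The phospholipid flippases around *Atp9a* are 9 genes, namely *Atp9a*, *Atp9b*, *Atp8a1*, *Atp8b4*, *Atp10a*, *Atp10d*, *Atp11a*, *Atp11b* and *Tmem30a*, out of 55421 gene identifiers counted. The first 8 encode P4-ATPases and the last encodes a subunit that most P4-ATPases need. They were chosen by family, with the counts in IL-4Rα-/- and IL-4Rα+/+ monocytes known, so the differences between the genotypes are given for them as a description with no test. All 9 had enough counts to be kept among the 13849 genes tested.

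The study asked how the receptor for interleukin-4 acts on monocytes. RNA was sequenced from spleen monocytes of 3 IL-4Rα+/+ and 3 IL-4Rα-/- C57BL/6 mice, the latter lacking the alpha chain of the receptor in every cell type, not in monocytes alone. The mice received no treatment that the labels name, and age and sex are not given there. Each library held 26807281 to 29033297 counts on genes. The labels name no pools or litters of single libraries, so the spread given here is that between libraries.

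The monocytes were enriched from the spleen with a kit and not sorted by a gate, so a change in the cells present and a change in RNA per cell cannot be told apart in any result below. All 10 monocyte markers listed were among the genes tested, with *Csf1r*, the receptor for colony-stimulating factor 1, at 2227 to 3095 CPM (counts scaled by TMM to libraries of the same total). *Il4ra*, the targeted gene, had 3903, 3550 and 4686 counts in IL-4Rα+/+ replicates 1, 2 and 3, and 781, 2268 and 940 counts in IL-4Rα-/- replicates 1, 2 and 3. IL-4Rα-/- replicate 2 thus held the most *Il4ra* counts among the knockout libraries, still under each IL-4Rα+/+ library. The same library had the highest summed neutrophil markers, at 684 CPM against 61.1 to 281 CPM in the other libraries, and the highest summed pancreatic enzymes, at 398 CPM against 10.5 to 57.2 CPM. For the members, results that rest on it are given with and without it.

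A membrane has a different lipid makeup in its inner and its outer leaflet. P4-ATPases, or flippases, use ATP to move phospholipids from the outer or luminal leaflet to the cytosolic one, which keeps phosphatidylserine and phosphatidylethanolamine on the inside of the cell, and scramblases undo this when a cell dies or is activated. In blood cells, phosphatidylserine on the outside is a signal by which phagocytes take up dying cells. Most P4-ATPases leave the endoplasmic reticulum only with the subunit CDC50A, which *Tmem30a* encodes, whereas the proteins of *Atp9a* and *Atp9b* reach endosomes and the Golgi without it. During each transport cycle an aspartate of the P-type ATPase signature, which is followed by lysine, threonine, glycine and threonine, is phosphorylated.

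The coding bases around that aspartate are shown because the 8 P4-ATPases among the members share this signature with other P-type ATPases. Each was read 5′ to 3′ on the coding strand from the principal transcript of the GRCm38 annotation, and the capitals mark the 5 codons of the signature. For *Atp10d*, a transcript that the annotation types as a polymorphic pseudogene was used instead.
Atp9a: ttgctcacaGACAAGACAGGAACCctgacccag
Atp8a1: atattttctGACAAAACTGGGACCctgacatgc
Atp8b4: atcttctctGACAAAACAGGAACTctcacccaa
Atp10a: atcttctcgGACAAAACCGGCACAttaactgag
Atp10d: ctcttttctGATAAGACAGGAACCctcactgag
Atp11a: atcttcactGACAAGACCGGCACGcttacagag
Atp11b: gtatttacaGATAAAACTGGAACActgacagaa
The *Atp9a* stretch crosses a splice junction, with chr2:168674792-168674810 in exon 12 and chr2:168673576-168673589 in exon 13, on the minus strand. The *Atp8a1* stretch lies at chr5:67761161-67761193 on the minus strand in exon 14 and the *Atp8b4* stretch at chr2:126397634-126397666 on the minus strand in exon 13. On the plus strand, the stretch of *Atp10a* lies at chr7:58788353-58788385 in exon 7, that of *Atp10d* at chr5:72247212-72247244 in exon 9, that of *Atp11a* at chr8:12831094-12831126 in exon 13 and that of *Atp11b* at chr3:35809366-35809398 in exon 13. The signature was found once in each of the 8 P4-ATPases, *Atp9b* included, and not in *Tmem30a*. The aspartate is residue 391 in *Atp9a* and residue 467 in *Atp9b*.

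Translated from the same transcripts, *Atp9a* encodes 1047 residues and *Atp9b* 1135 residues, and 75.2% of their aligned residues were identical. *Atp9a* shared 32.3% to 35.2% of aligned residues with the other 6 P4-ATPases among the members. For *Atp10d*, read only to a stop after 816 residues, 620 positions were aligned with *Atp9a*, against 1000 for *Atp8a1*. The next closest pair was *Atp11a* and *Atp11b*, with 59.8% identity. *Tmem30a* encodes 364 residues and is no ATPase.

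*Atp10d* has a further feature of its own. Its reading frame in the reference, which is of the C57BL/6J strain, ended after 816 residues, and the same frame then ran on for another 652 codons before the next stop. The annotation lists the transcript as a polymorphic pseudogene, and C57BL/6J mice are known to carry a premature stop there. The stop codon is in capitals in the stretch below, which lies in exon 12 at chr5:72264456-72264488 on the plus strand.
Atp10d stop: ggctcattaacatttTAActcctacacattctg
The reads themselves were not analysed here, so the codon these mice carry was not examined.

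*Atp9a* was the member with the lowest level and with the largest difference between the genotypes. It occupies bases 168634438 to 168742409 of chromosome 2 (GRCm38, minus strand) and encodes an endosomal P4-ATPase that acts in recycling of cargo to the plasma membrane. It had 22, 19 and 15 counts in IL-4Rα+/+ replicates 1, 2 and 3, and 69, 69 and 116 counts in IL-4Rα-/- replicates 1, 2 and 3. Every IL-4Rα-/- library was above every IL-4Rα+/+ library, and IL-4Rα-/- replicate 3 was the highest. The level was 0.676 ± 0.104 CPM (SD, n = 3) in IL-4Rα+/+ and 2.93 ± 0.857 CPM (SD, n = 3) in IL-4Rα-/- monocytes, a log2 fold change of 2.11 (SE, the standard error from the fit, 0.31), which is a ratio of 4.32. Of the 13849 genes tested, 39 had a larger log2 fold change.

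The difference rested on few reads, 56 in all IL-4Rα+/+ and 254 in all IL-4Rα-/- libraries. Leaving out 1 mouse at a time gave log2 fold changes of 1.85 to 2.23, and it was 2.23 without IL-4Rα-/- replicate 2. The lowest of these was without IL-4Rα-/- replicate 3. Since the labels number the mice 1 to 3 in both genotypes, the number was also used as a replicate block, which gave 2.08. *Atp9a* has no annotated gene that shares exon bases with it on either strand.

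Its closest relative did not show such a difference. *Atp9b*, whose product sits at the trans-Golgi network, had 71.5, 81.7 and 82.5 CPM in IL-4Rα+/+ and 70.7, 75.6 and 76.3 CPM in IL-4Rα-/- libraries. The ranges overlapped, with a log2 fold change of -0.08 (SE 0.08). Per kilobase of exon, *Atp9b* was at 6.42 CPM and *Atp9a* at 0.305 CPM over the 6 libraries. The length used joins the exons of all annotated transcripts of a gene, so comparisons between genes on this scale depend in part on the annotation.

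Markers of other cells moved with the genotype in the same direction as *Atp9a*. The 20 erythroid markers summed to 83.6 to 144 CPM in IL-4Rα+/+ and 197 to 483 CPM in IL-4Rα-/- libraries, and 20 of 20 had a higher mean in IL-4Rα-/- monocytes. The 12 markers of eosinophils, basophils and mast cells summed to 80.1 to 85.1 CPM against 123 to 193 CPM, with 11 of 12 higher in the mean. The 12 markers of red pulp macrophages summed to 3888 to 4695 CPM against 5018 to 7706 CPM, with 10 of 12 higher in the mean. None of these 3 lists held a marker at 0 counts in all libraries, and their ranges did not overlap between the genotypes. The lists were chosen with earlier results of these data known, so these values are a description with no test. IL-4Rα-/- replicate 3, the library highest in *Atp9a*, was also the highest in erythroid markers, but the other 2 lists were highest in IL-4Rα-/- replicate 1. The part of these cells in the level of *Atp9a* was not tested. Summed neutrophil, B and plasma cell, T and NK cell, dendritic cell, platelet and pancreatic lists overlapped between the genotypes, as did the monocyte list itself. Even so, 11 of 12 neutrophil, 10 of 12 B and plasma cell and 14 of 14 pancreatic markers were higher in the IL-4Rα-/- mean. So were 6 of 12 T and NK cell, 3 of 12 dendritic cell, 6 of 12 platelet and 3 of 10 monocyte markers. These means include IL-4Rα-/- replicate 2, at 684 CPM for the neutrophil and 398 CPM for the pancreatic list. IL-4Rα-/- replicates 1 and 3 were at 242 and 136 CPM for neutrophil and at 49.0 and 19.6 CPM for pancreatic markers. IL-4Rα+/+ libraries reached 281 and 57.2 CPM. The markers were not counted without IL-4Rα-/- replicate 2. Of all tested genes, 51.5% had a log2 fold change above 0.

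**Figure D1:**
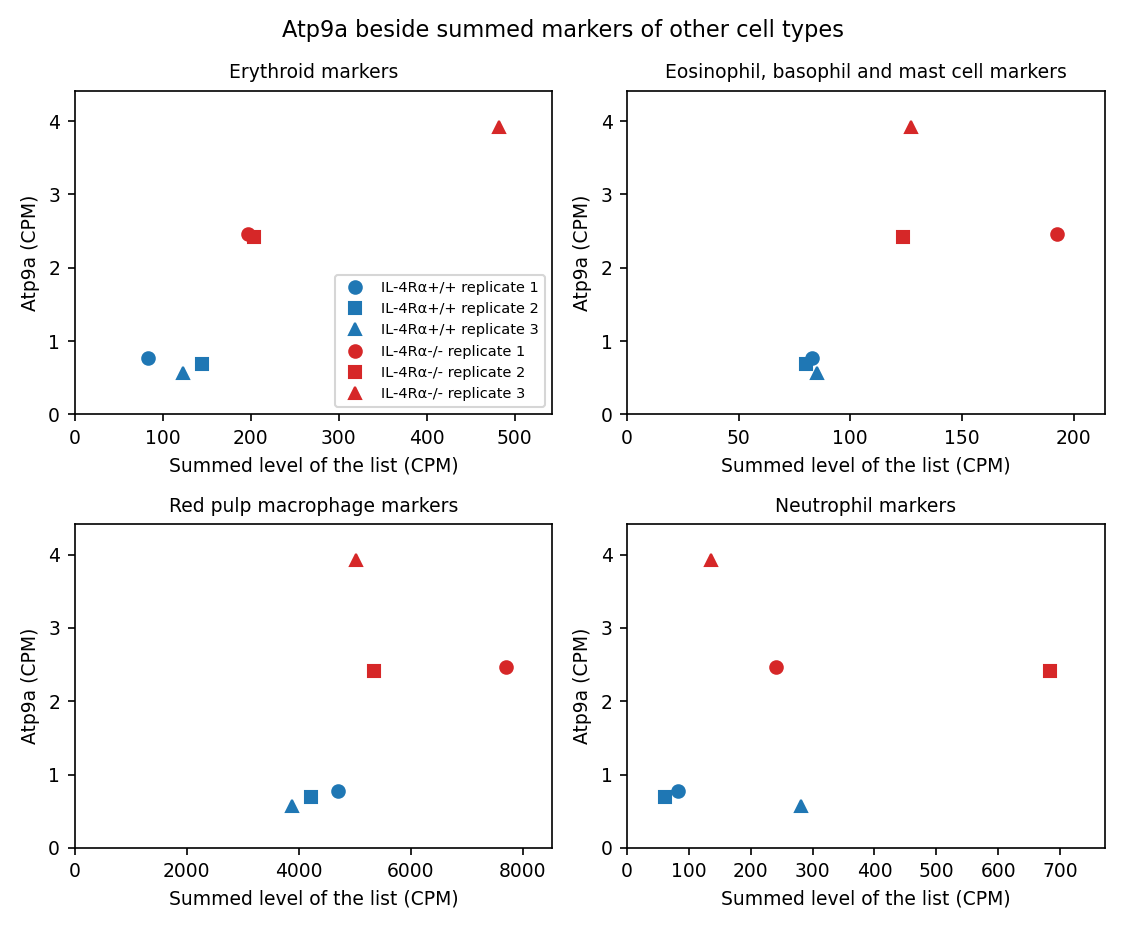
*Atp9a* in CPM (y axes) against the summed CPM of 4 marker lists (x axes), 1 point per library, blue for IL-4Rα+/+ and red for IL-4Rα-/- monocytes. The red points lie right of the blue ones for erythroid, eosinophil, basophil and mast cell, and red pulp macrophage markers, while neutrophil markers overlap (61.1 to 281 CPM against 136 to 684 CPM).

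*Atp10d* was the member that was lowest in IL-4Rα-/- relative to IL-4Rα+/+ monocytes. Its product, where a full-length one is made, flips glucosylceramide at the plasma membrane. It had 2179, 2245 and 1872 counts in IL-4Rα+/+ and 1668, 1573 and 1844 counts in IL-4Rα-/- libraries. In CPM these were 76.6, 81.2 and 70.7 against 59.5, 55.1 and 62.4, so all IL-4Rα-/- libraries were under all IL-4Rα+/+ libraries. The level was 76.1 ± 5.29 CPM (SD, n = 3) against 59.0 ± 3.67 CPM (SD, n = 3), a log2 fold change of -0.37 (SE 0.08). With a trend of counts with transcript length removed from each library it was -0.30, and without IL-4Rα-/- replicate 2 it was -0.32.

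*Tmem30a*, the shared subunit, held nearly the same level in every mouse. Its level was 156, 155 and 157 CPM in IL-4Rα+/+ and 151, 151 and 149 CPM in IL-4Rα-/- libraries. The ranges did not overlap, but the step was small, with a log2 fold change of -0.06 (SE 0.06). The standard deviation of log2 CPM within genotypes was 0.0087, and 0% of the tested genes had a smaller one. Counting error alone gives a standard deviation of 0.022 at its 4170 to 4450 counts, which is above that spread within genotypes.

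Among the 9 members, the ranges did not overlap with the higher values in IL-4Rα-/- monocytes for 1 (*Atp9a*), against 7.63% of all tested genes, and with the lower values there for 2 (*Atp10d* and *Tmem30a*), against 7.87%. Since this contrast was known when the members were chosen, nothing can be read from these counts. In all, 5 members had a log2 fold change above 0 and 4 under 0, with a median of 0.10, beside 0.01 over all tested genes.

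**Figure D2:**
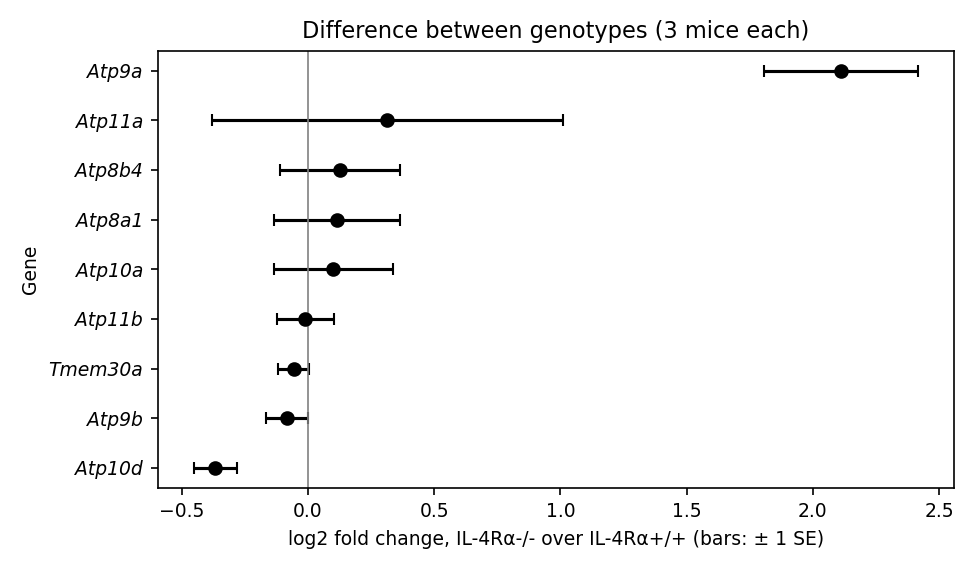
Log2 fold change of each member in IL-4Rα-/- over IL-4Rα+/+ monocytes (x axis), points from edgeR's fit over 3 mice per genotype and bars of 1 standard error on each side. *Atp9a* stands at 2.11, *Atp10d* at -0.37, and the bar of *Atp11a* (0.70 on each side of 0.31) is the widest.

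*Atp11a* varied most from mouse to mouse. It encodes a plasma membrane flippase for phosphatidylserine and phosphatidylethanolamine. Its level was 46.0, 53.8 and 143 CPM in IL-4Rα+/+ replicates 1, 2 and 3, and 48.1, 205 and 49.6 CPM in IL-4Rα-/- replicates 1, 2 and 3. One mouse of each genotype was thus far above the other 4, whose values lay between 46.0 and 53.8 CPM. The highest library was 4.45-fold above the lowest, and 97.2% of the tested genes had a smaller standard deviation within genotypes. The log2 fold change between the genotypes was 0.31 (SE 0.70) and ranged from -0.73 without IL-4Rα-/- replicate 2 to 1.02 without IL-4Rα+/+ replicate 3 when 1 mouse at a time was left out. *Atp11a* shares 371 exon bases with 2 antisense genes, and the strand used for counting is not given in the sources used here, so its counts may hold reads of these genes.

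*Atp11b*, the nearest relative of *Atp11a*, did not follow it. Its product is found on endosomes. It had 117, 146 and 140 CPM in IL-4Rα+/+ and 121, 141 and 138 CPM in IL-4Rα-/- libraries. The ranges overlapped, with a log2 fold change of -0.01 (SE 0.11).

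The remaining members, *Atp8a1*, *Atp8b4* and *Atp10a*, overlapped between the genotypes and differed between mice in a shared way. *Atp8a1* encodes a flippase for phosphatidylserine and phosphatidylethanolamine on endosomes and at the plasma membrane, and *Atp10a* one for phosphatidylcholine, while the substrate of the *Atp8b4* product is less well known. *Atp8a1* had 92.4, 127 and 173 CPM in IL-4Rα+/+ replicates 1, 2 and 3, and 130, 175 and 119 CPM in IL-4Rα-/- replicates 1, 2 and 3. *Atp8b4* had 99.5, 143 and 166 CPM in IL-4Rα+/+, and 115, 188 and 143 CPM in IL-4Rα-/- replicates. *Atp10a* had 18.1, 29.1 and 31.4 CPM in IL-4Rα+/+, and 22.6, 33.7 and 27.9 CPM in IL-4Rα-/- replicates. *Atp8a1* shares 204 exon bases with 2 antisense genes, with the same limit as *Atp11a*. For all 3 genes IL-4Rα+/+ replicate 1 was the lowest library and IL-4Rα-/- replicate 2 the highest. Their log2 fold changes were 0.11 (SE 0.25), 0.13 (SE 0.24) and 0.10 (SE 0.24), and each was under 0 without IL-4Rα+/+ replicate 1 and without IL-4Rα-/- replicate 2.

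Monocytes come as Ly6C high cells, which are marked by *Ccr2* and *Ly6c2*, and Ly6C low cells, which are marked by *Spn*, *Nr4a1*, *Treml4* and *Ace*. The mean log2 CPM of the former minus that of the latter, used as a balance of the markers of both kinds, was -2.08, -0.63 and 0.62 in IL-4Rα+/+ replicates 1, 2 and 3, and -0.75, 1.42 and -0.22 in IL-4Rα-/- replicates 1, 2 and 3. The balance overlapped between the genotypes and had its lowest and highest values in the libraries that were lowest and highest in the 3 genes. *Treml4* is also on the list of red pulp macrophage markers. The relation between the members and this balance was computed after the values of the members were seen.

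Over the 6 libraries, *Atp8b4* had a Pearson correlation with the balance of 0.96 (two-sided exact permutation test, p = 0.00694) and a Spearman correlation of 1 (exact permutation test, p = 0.00278), so the libraries came in the same order by both. That order rests on a near tie, with log2 CPM of 7.1611 in IL-4Rα+/+ replicate 2 and 7.1616 in IL-4Rα-/- replicate 3. Counting error alone gives *Atp8b4* a standard deviation of 0.0228 in log2 CPM. *Atp10a* had a Pearson correlation of 0.92 (exact permutation test, p = 0.00833) and a Spearman correlation of 0.94 (exact permutation test, p = 0.0167). *Atp8a1* had a Pearson correlation of 0.95 (exact permutation test, p = 0.0139) and a Spearman correlation of 0.77 (exact permutation test, p = 0.103). Without the 2 libraries farthest from the median balance, IL-4Rα+/+ replicate 1 and IL-4Rα-/- replicate 2, the Pearson correlation was 0.85 for *Atp8b4*, 0.74 for *Atp10a* and 0.83 for *Atp8a1*, over only 4 libraries. Adjusted by Benjamini-Hochberg over all tested genes, the exact permutation p of the Pearson correlation was 0.101, 0.106 and 0.126, under the 0.15 used for genes but not under 0.05.

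Such relations were common in these libraries. Of 13843 tested genes other than the 6 markers, 5.48% had a Pearson correlation with the balance above 0.9, and 22.6% had an unadjusted p under 0.05 in the exact permutation test. The 3 members were among these 5.48%. The libraries also differed in summed neutrophil markers, with 82.3, 61.1 and 281 CPM in IL-4Rα+/+ replicates 1, 2 and 3. In IL-4Rα-/- replicates 1, 2 and 3 these were at 242, 684 and 136 CPM. IL-4Rα-/- replicate 1, at 242 CPM, had a balance of -0.75. The part of neutrophils in these relations was not tested.

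*Atp11a* was high in the 2 libraries with the highest balance and flat in the other 4, so the libraries fell into separate clusters and a pooled correlation is not given. Among the other members, the Pearson correlation with the balance was 0.25 for *Atp9a* (exact permutation test, p = 0.628), 0.47 for *Atp9b* (p = 0.372 in the same permutation test), 0.72 for *Atp11b* (permutation p = 0.125), -0.59 for *Atp10d* (permutation p = 0.224) and -0.27 for *Tmem30a* (permutation p = 0.594). In this family 8 relations are given, with that of *Atp11a* left out.

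**Figure D3:**
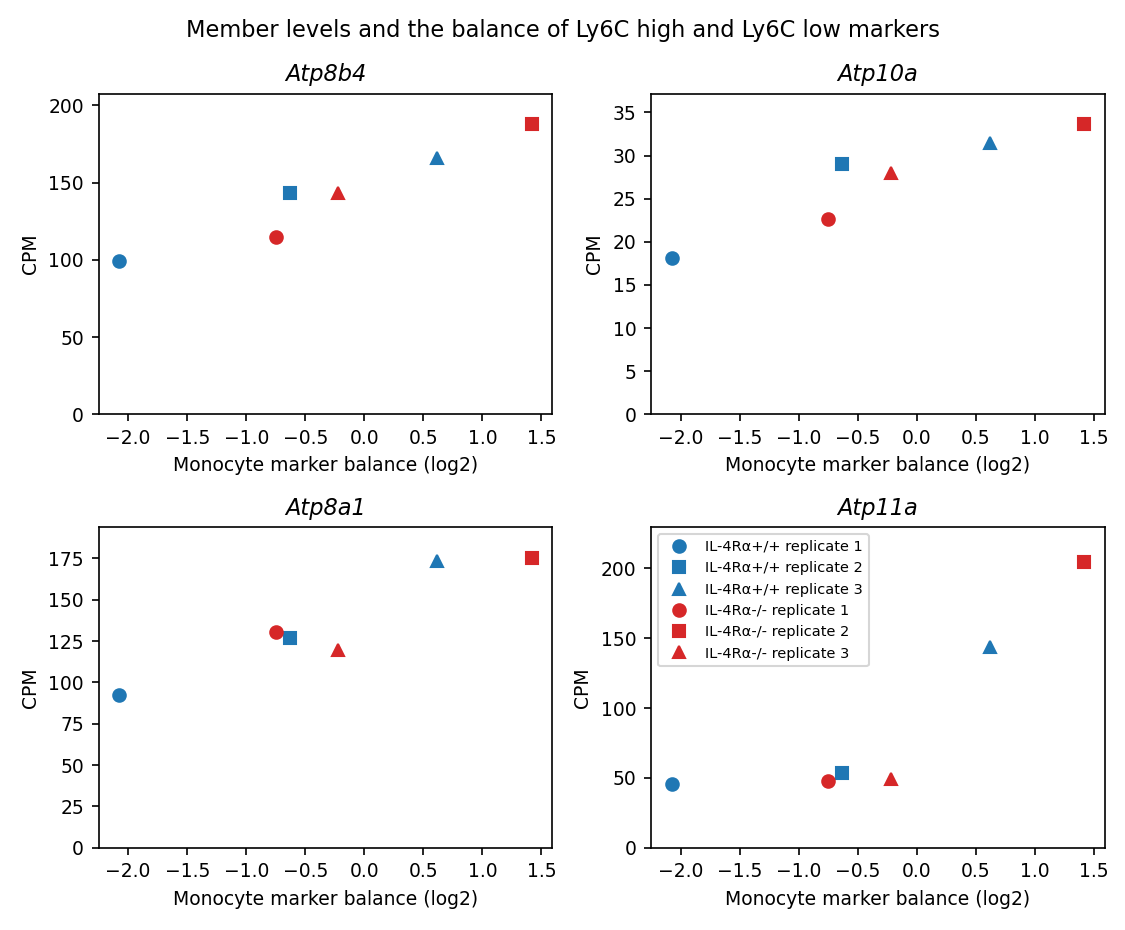
CPM of *Atp8b4*, *Atp10a*, *Atp8a1* and *Atp11a* (y axes, starting at 0) against the balance of Ly6C high and Ly6C low monocyte markers (x axes, log2), 1 point per library. The first 3 genes are lowest in IL-4Rα+/+ replicate 1, at a balance of -2.08, and highest in IL-4Rα-/- replicate 2, at 1.42, and *Atp11a* is high only in IL-4Rα+/+ replicate 3 (143 CPM) and IL-4Rα-/- replicate 2 (205 CPM).

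Ordered by CPM per kilobase of exon over the 6 libraries, the members ran from *Tmem30a* at 27.2, *Atp8b4* at 21.4 and *Atp11b* at 14.6, through *Atp8a1* at 9.55, *Atp10d* at 8.61, *Atp11a* at 8.15 and *Atp9b* at 6.42, to *Atp10a* at 4.86 and *Atp9a* at 0.305. The ranges of neighbours in this order overlapped except between *Atp11b* and *Atp8a1* and between *Atp10a* and *Atp9a*. Of all tested genes, 85.3% were under *Tmem30a* and 9.84% under *Atp9a* on this scale. *Atp9a* ranged from 0.0957 to 0.663 CPM per kilobase, under each library of each other member.

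**Figure D4:**
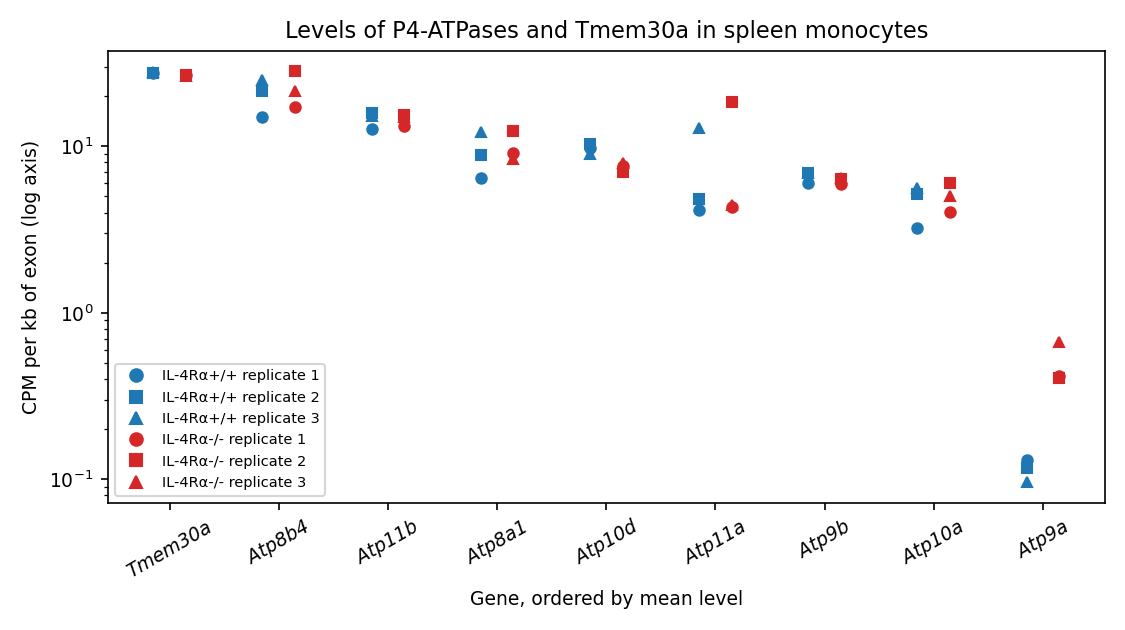
CPM per kilobase of exon (log y axis) of the 9 members, ordered by their mean, 1 point per library with blue for IL-4Rα+/+ and red for IL-4Rα-/- monocytes. *Atp9a*, at 0.0957 to 0.663, lies under all other members in both genotypes, and *Tmem30a* (26.5 to 27.9) has the narrowest range.

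Levels of *Xist* and *Ddx3y* showed that IL-4Rα+/+ replicate 1 and IL-4Rα-/- replicate 3 came from female mice and the other 4 libraries from males. *Atp9a* was at 0.773 CPM in the IL-4Rα+/+ female and at 3.92 CPM in the IL-4Rα-/- female, and at 0.566 to 0.687 CPM in IL-4Rα+/+ against 2.42 to 2.46 CPM in IL-4Rα-/- males. *Atp10d* was at 76.6 CPM against 62.4 CPM in the females, and at 70.7 to 81.2 CPM against 55.1 to 59.5 CPM in the males. Both genes thus differed in the same direction in either sex, which follows from their ranges not overlapping and is no further result. *Atp8b4*, by contrast, had a log2 ratio of 0.52 in the pair of females and -0.03 in males, and *Atp10a* 0.62 and -0.10, and with 1 female per genotype these were not compared by a test.

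Among the other P4-ATPases and CDC50 subunits, *Atp8b2*, which encodes a phosphatidylcholine flippase, was at 61.1, 76.2 and 90.0 CPM in IL-4Rα+/+ and 71.2, 78.0 and 75.8 CPM in IL-4Rα-/- libraries. The ranges overlapped, with a log2 fold change of -0.01 (SE 0.14), and edgeR did not call it. In this list 7 genes had at most 11 counts in a library and were not tested, and *Atp10b* and *Tmem30c* had 0 counts in each library. A count of 0 does not show absence, since a gene expected at up to 3 counts per library could be missed.

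Genes of the same lipid pathways were read from lists of other P4-ATPases, scramblases, lipid exporters, synthesis of phosphatidylserine and phosphatidylethanolamine, endosomal partners of *Atp9a* and recognition of phosphatidylserine, with 63 genes listed and 49 tested. With edgeR's quasi-likelihood test and Benjamini-Hochberg adjustment over all genes, 0 of the 49 had an adjusted p under 0.15, as did 0% of all tested genes, for which the smallest adjusted p was 0.618. At an unadjusted p under 0.05, 2 of the 49 were higher in IL-4Rα-/- monocytes, against 3.72% of all tested genes, and 3 were lower, against 4.37%. DESeq2 called 1 of them, *Cd300lb*, against 0.571% of the genes it tested. The median log2 fold change of the 49 genes was -0.03.

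The endosomal partners held 2 of these 5 genes. The trend of counts with transcript length was not removed from the values given for the 5 genes. With it removed, 842 of the genes tested had an unadjusted p under 0.05 in edgeR, against 1120 with it kept. *Dop1a*, a relative of the protein with which *Atp9a* and *Mon2* act in a retrieval complex, was at 56.7, 61.1 and 55.1 CPM in IL-4Rα+/+ and 48.0, 39.0 and 44.3 CPM in IL-4Rα-/- libraries. All IL-4Rα-/- values were the lower ones, with a log2 fold change of -0.40 (SE 0.10, adjusted p = 0.618 from edgeR). *Vps29*, a subunit of retromer, which returns cargo from endosomes, was at 55.0, 51.4 and 55.2 CPM against 58.9, 61.6 and 61.8 CPM, a log2 fold change of 0.17 (SE 0.07, adjusted p = 0.618 from edgeR). The retromer subunits *Vps35* and *Vps26a* had log2 fold changes of 0.07 (SE 0.08) and 0.19 (SE 0.10). Of the 9 partners tested, 5 had a log2 fold change above 0 and 4 under 0.

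The lipid exporters, ABC transporters that move lipids to the outer leaflet or to acceptors outside, held a further 2. *Abca7* was at 492, 491 and 477 CPM in IL-4Rα+/+ and 389, 403 and 435 CPM in IL-4Rα-/- libraries, a log2 fold change of -0.25 (SE 0.07, adjusted p = 0.618 from edgeR). *Abcb4*, a phosphatidylcholine floppase, was at 9.49, 6.91 and 8.49 CPM against 18.1, 12.7 and 9.47 CPM, and the ranges overlapped since IL-4Rα-/- replicate 3 lay just under IL-4Rα+/+ replicate 1. Its log2 fold change was 0.69 (SE 0.26, adjusted p = 0.618 from edgeR). *Abcg1*, which exports cholesterol, was at -0.04 (SE 0.18).

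The last gene was *Cd300lb*, a receptor of myeloid cells that binds phosphatidylserine. It was at 201, 216 and 212 CPM in IL-4Rα+/+ and 159, 174 and 169 CPM in IL-4Rα-/- libraries, with no overlap. Its log2 fold change was -0.32 (SE 0.07), with an adjusted p of 0.618 from edgeR and 0.107 from DESeq2. *Axl*, a receptor that binds phosphatidylserine through a bridging protein and a marker of red pulp macrophages, was at 388, 405 and 346 CPM against 728, 438 and 436 CPM, a log2 fold change of 0.49 (SE 0.21, adjusted p = 0.618 from edgeR). *Itgb5*, an integrin subunit of the same list, was at -0.09 (SE 0.21).

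**Figure D5:**
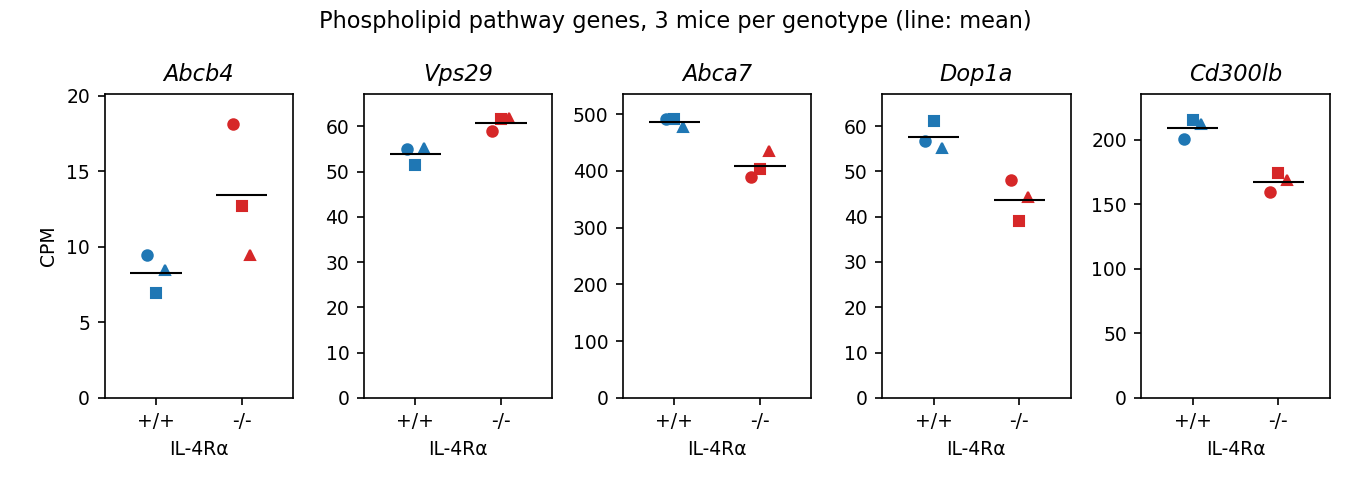
CPM (y axes, starting at 0) of the 5 pathway genes with an unadjusted p under 0.05 in the 3 IL-4Rα+/+ (blue) and 3 IL-4Rα-/- (red) libraries, with a line at each mean. *Abcb4* (8.30 against 13.4 CPM) overlaps between the genotypes, and *Abca7*, *Dop1a* and *Cd300lb* are lower and *Vps29* is higher in all IL-4Rα-/- libraries.

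In the scramblases and the synthesis genes, 0 genes had an unadjusted p under 0.05. *Nptn* and *Bsg*, which encode partners of the Xkr8 scramblase, had log2 fold changes of -0.04 (SE 0.09) and 0.24 (SE 0.11). *Etnk1* and *Cept1*, enzymes of phosphatidylethanolamine synthesis, had log2 fold changes of -0.11 (SE 0.08) and -0.04 (SE 0.09).

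The genes whose log2 CPM was most like that of *Atp9a* over the 6 libraries were *Gclm* with a Pearson correlation of 0.99, *Lsm1* with 0.99, and *Vamp3*, *Isg20* and *Emc8* with 0.98 each. In all, 25 genes (0.181% of those tested) had a correlation above 0.95. *Gclm*, a subunit of the enzyme that makes the glutathione precursor, was at 30.7, 29.6 and 28.8 CPM in IL-4Rα+/+ and 38.3, 41.2 and 46.7 CPM in IL-4Rα-/- libraries. It was highest in IL-4Rα-/- replicate 3 as *Atp9a* was, but its log2 fold change was 0.50 (SE 0.09) and thus far smaller. All 5 genes were higher in each IL-4Rα-/- library than in any IL-4Rα+/+ library, against 7.63% of all tested genes. Since *Atp9a* itself did not overlap between the genotypes, ranking by likeness to it favours such genes. Nothing further can be read from this, and the correlations describe these 6 libraries only.

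Signals of interleukin-4 reach DNA through STAT6, which binds a spaced palindrome. The motif TTCNNNNGAA, which reads the same on both strands, was searched in windows of 300 bases around the RefSeq starts of GRCm38.p6, most of each window lying before the start. It was found in 0 of 10 promoters of the 7 members with an entry, 4 of which belong to *Atp9a*, and in 6.95% of 32851 promoters. No match says only that these letters are absent from these windows.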

How the data were processed

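Libraries of polyadenylated RNA from monocytes of 3 mice per genotype were read from 1 end for 75 bp. The authors aligned the reads to GRCm38 with STAR 2.6.1a and deposited raw counts per gene, without normalization. Which strand column was deposited is not given in the sources used here. Lines that name no gene held 21.1% to 22.8% of the reads and were left out of library sizes.

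Symbols and exon lengths came from Gencode M21, a release other than the authors', which held 55240 of 55421 identifiers. Genes were filtered by filterByExpr (minimum count 10), normalised by TMM and fitted in edgeR 4.0.16 (quasi-likelihood test), which gave log2 fold changes and standard errors. DESeq2 1.42.0 was an alternative. The threshold was an adjusted p of 0.15. Log2 CPM used a prior count of 2. Steps were tested on simulated data.

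The genes named were *Il4ra*, the members, of each pathway list those with an unadjusted p under 0.05 and the 2 highest in mean CPM, and the 5 most like *Atp9a*. A gene that this rule names is not reported here. Members and lists were chosen with earlier results of these data known. The alternatives changed the test, scaling, filter, replicate block, *Xist* covariate and length trend, and left out each mouse. Same-numbered libraries had deviations from the group means with correlations of 0.18, -0.27 and -0.30. So few pairs cannot decide whether the numbers pair the mice.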

Additional observations from a re-analysis of the deposited data

How the results depend on the processing

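The log2 fold change of *Atp9a* was 2.08 to 2.16 under the other tests, scalings and filters, with the replicate block, with *Xist* as a covariate and without the length trend, and 1.85 to 2.23 when 1 mouse was left out. With the replicate block, 0 genes passed in edgeR, 765 genes had an unadjusted p under 0.05, and the log2 fold change of *Atp9a* was 2.08. The number of genes passing, 0 with edgeR, was 80 with DESeq2 and 1120 at an unadjusted p under 0.05 in edgeR. In edgeR it was also 0 when any 1 mouse was left out. Of the pathway genes, DESeq2 called 1 with all 6 libraries. EdgeR called 0 of them, also when any 1 mouse was left out. DESeq2 was not run with a mouse left out. The cause of the difference between the tools was not tested. *Atp9b*, *Atp10d* and *Tmem30a* stayed under 0 in all 12 alternatives. *Atp11b* changed sign in 4, *Atp8a1*, *Atp8b4* and *Atp10a* in 2 each and *Atp11a* in 1, each with a standard error larger than the fold change. Relations with the marker balance, under alternatives chosen after seeing the data, had Pearson correlations of 0.92 to 0.99 for *Atp8b4* (exact permutation p of at most 0.025), 0.83 to 0.98 for *Atp10a* (at most 0.075) and 0.88 to 0.97 for *Atp8a1* (at most 0.10). For *Atp9a*, counting error alone gives a standard deviation of 0.20 in log2 CPM at its mean count over all libraries. The spread between libraries within genotypes, pooled over both, was 0.31. Counting error is larger at the fewer counts of IL-4Rα+/+ and smaller at those of IL-4Rα-/- libraries, so these values cannot be compared within each genotype.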
